A study of Mus musculus with 9 samples.

Results

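Single-exon circular RNAs are circRNAs made of 1 exon whose 3′ end was joined back to its own 5′ end. They were the rows of the deposited circRNA table with the type circRNA and an exon count of 1. This rule gave 278 of the 4486 circRNAs, beside 3913 circRNAs of several exons and 295 of introns. The 278 came from 258 host genes and held 1617 of the 17959 back-splice junction reads of the series, so that 6.20% of the circRNAs carried 9.00% of the reads.

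Circular RNAs form when the spliceosome joins a downstream splice donor to an upstream acceptor, a reaction called back-splicing. The circle has no free end and is therefore resistant to exonucleases, which lets it accumulate where its linear mRNA turns over. A circle of 1 exon is read only through the junction of the exon's end with its own start, since every other base is shared with the linear transcript. Long introns on both sides, base pairing between them and RNA-binding proteins such as QKI and MBNL are known to favour circle formation.

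Mouse liver RNA was measured in 9 libraries, 3 in each group, with labels giving an age of 8 weeks. Pair-fed (PF) mice received an isocaloric control liquid diet, alcohol-fed (AF) mice received the Lieber-DeCarli diet with ethanol for 5 weeks, and AF+MNA mice received that diet with daily intraperitoneal MNA at 50 mg/kg, a compound that the labels do not spell out. The methods, which cover PF and AF, describe male mice fasted before death in groups of more animals than libraries, and no source used here says which animals gave which library. The strain is labelled C57BL/6 in PF and AF and C57BL/7, C57BL/8 and C57BL/9 in the 3 AF+MNA libraries, and no source used here explains the difference. The libraries were depleted of ribosomal RNA and strand-specific, and no digestion of linear RNA is described. The question read here is whether single-exon circles differed with alcohol or with MNA. Total reads of a library ranged from 57800660 to 82179248 and circRNA junction reads from 1588 to 2545. Single-exon circles had between 141 (PF replicate 2) and 232 (AF+MNA replicate 2) reads per library, so most single values were of a few reads. A circle at 0 in a library may have had up to 3 reads' worth, between 0.0365 and 0.0519 RPM (junction reads per 1000000 total reads). AF replicate 3 and AF+MNA replicate 1 stood apart, with 27.0% and 21.7% of their circRNAs seen by 1 read against 41.7% to 55.0% in the other 7 libraries.

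The sequence that tells a circle from its mRNA is the back-splice junction, and those of the 6 circles with the most reads are printed because the counts below rest on them. Each is the last 15 bases of the exon, in capitals, followed by the first 15 bases of the same exon, taken from GENCODE M21 transcripts (GRCm38).
Nfix, chr8:84771784-84772315, minus strand: TTGTCCACACTCCGGgatgagttccacccg
Pwwp2a, chr11:43704534-43705477, plus strand: CCACCCGCTCAGCAGgtttgggccccatgg
Cyp2j5, chr4:96641272-96641448, minus strand: ATAGAAATGCAAAAGctctacaatggcttc
Tcf20, chr15:82851513-82857284, minus strand: ATCGCCAGAGAGATGgagggctgctggcct
Dpyd, exon 13, chr3:118999170-118999385, plus strand: TTCTCTCTTGATAAGgcacaatatggaacc
Shoc2, chr19:53987454-53988383, plus strand: TGCCTGCTGAAATTGggactctaatgagct

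Nfix and its paralog Nfib, both nuclear factor I transcription factors, each gave a circle of exon 2 with 532 bases. These exons were identical at 418 bases (78.6%), and the junctions at 19 of 30. The Nfib junction is shown to set beside that of Nfix, with the exon end in capitals.
Nfib, chr4:82498238-82498769, minus strand: ACGTGCAGGAGCAAGgatgaattccaccca
Nfix had 142 reads and Nfib 1 read over the 9 libraries. The mean levels of the host genes were 4.37 and 3.83 FPKM, which scales fragments to transcript length and library size.

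Exon 2 was the most frequent position of single-exon circles, and their exons were longer in the median than the other internal exons of the same isoforms. Of the 278, the start and end of 277 matched an exon of the isoform the table names in GENCODE M21, and the isoform given for Kng1 was not found there. None was the first or the last exon of its isoform. Exon 2 made up 135 of the 277 (48.7%), exon 3 43 (15.5%) and exon 4 26 (9.39%), whereas exon 2 made up 4.40% of the 2819 other internal exons of the same isoforms. Among multi-exon circles, 30.3% of 3907 started at exon 2. These shares are descriptions, since several circles share a host and the table fixes the isoform. The 2819 exons leave out the circularized ones, so each exon 2 that gave a circle is absent from them. The 4.40%, which rests on 124 exons, is thereby lowered by construction, and its contrast with 48.7% is widened. The share of exon 2 among all internal exons is not given.

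The median length was 445.5 bases, from 124 bases in St3gal5, a ganglioside synthase, to 5772 bases in Tcf20, a transcription coregulator. The other internal exons of the same isoforms had a median of 134 bases, and 41.4% of them were shorter than the shortest circle. Reads were taken as 150 bases long, and the filters of the circRNA caller are not known. Whether short circles were missed was not tested. Exons of at least 1000 bases were 26.3% of the circles and 0.922% of the other internal exons. The median was 532 bases for circles of exon 2 and 277 bases for circles of other exons, and lengths were not matched for position. Sf1 (129 bases) and Emg1 (142 bases) followed St3gal5 at the short end, each with 1 read. Tacc2 (5121 bases, 2 reads) and Ankrd12 (4658 bases, 1 read) followed Tcf20, which had 48 reads.

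**Figure D1:**
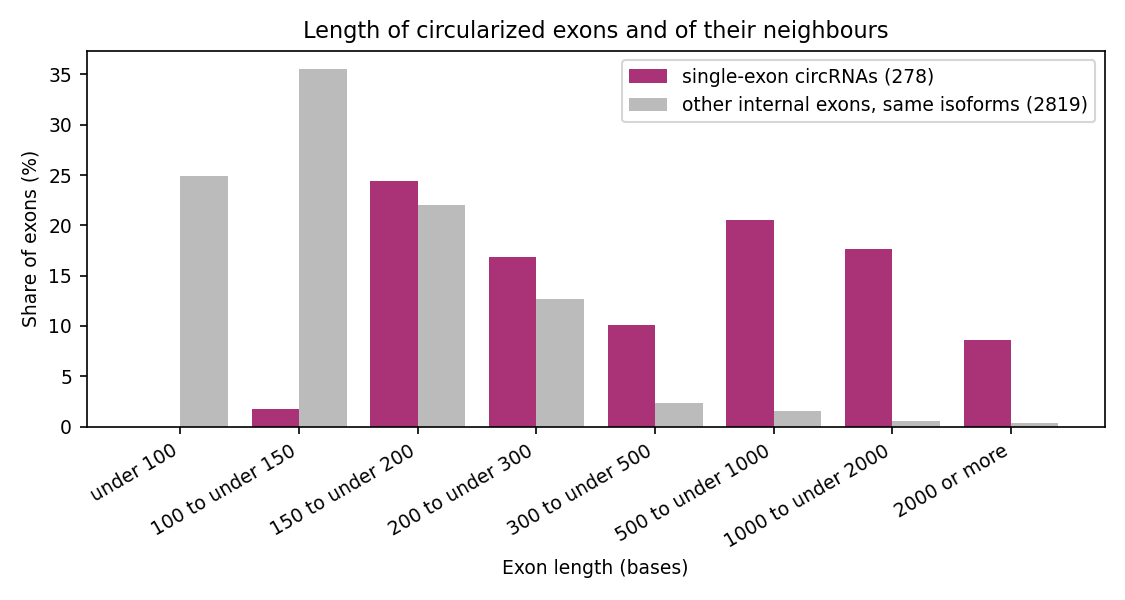
Share of exons (%) by exon length in bases, for the 278 single-exon circRNAs and the 2819 other internal exons of the same isoforms. The bins widen with length, so bar heights of different bins are not densities. From 150 to under 200 bases lie 24.5% of the circles and 22.0% of the other exons, and from 500 to under 1000 bases 20.5% and 1.56%.

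Flanking introns were long. The intron upstream of the circularized exon had a median of 15727.5 bases and the downstream one of 12571 bases, against 1864 bases for the introns of the same isoforms that touched no such exon. The compared introns were not matched for position in the gene, and 48.7% of the circles were exon 2. The introns beside multi-exon circles had medians of 7272 and 5560 bases. Of the 277 exons, 173 were wholly coding, 89 partly coding and 15 noncoding, and 85 held the start codon of the isoform, 72 of them as exon 2. A length divisible by 3 was found in 48.0% of the coding circles and in 38.5% of the other coding internal exons. The exon ended in G in 85.6% of the circles and in 81.9% of the other internal exons, and GC content was 50.3% against 49.4% in the median.

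Most single-exon circles were rare, yet they recurred between libraries more often than multi-exon circles. Of the 278, 153 were seen in 1 library (55.0%, against 75.7% of multi-exon circles), 78 in at least 3, and 95 had 1 read in all. Nfix, Cyp2j5, the Dpyd circle of exon 13 and Insr were seen in all 9 libraries. In each library, 75.1% ± 4.73 (SD, n = 9) of the single-exon circles detected were also found in another library, against 51.7% ± 3.18 of the multi-exon circles. The difference of 23.4 percentage points had the same sign in 9 of 9 libraries (exact paired permutation test, two-sided, p = 0.0039, the smallest these 9 pairs allow). A circle found in several libraries counts in each of them, so the 9 differences are not fully independent. The difference was 17.9 points over the 145 host genes that gave both kinds of circle.

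Reads per detected circle did not pass the same test. Single-exon circles had 2.73 ± 0.504 (SD, n = 9) reads per circle detected and multi-exon circles 2.63 ± 0.627, a difference of 0.105 with single-exon circles higher in 6 of 9 libraries (exact paired permutation test, two-sided, p = 0.156). The difference turned to -0.048 without the most abundant circle of each class and to -0.189 in host genes with both classes. It was 0.182 (p = 0.0469, exact permutation test) without AF replicate 3 and AF+MNA replicate 1, a choice made after seeing the data.

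**Figure D2:**
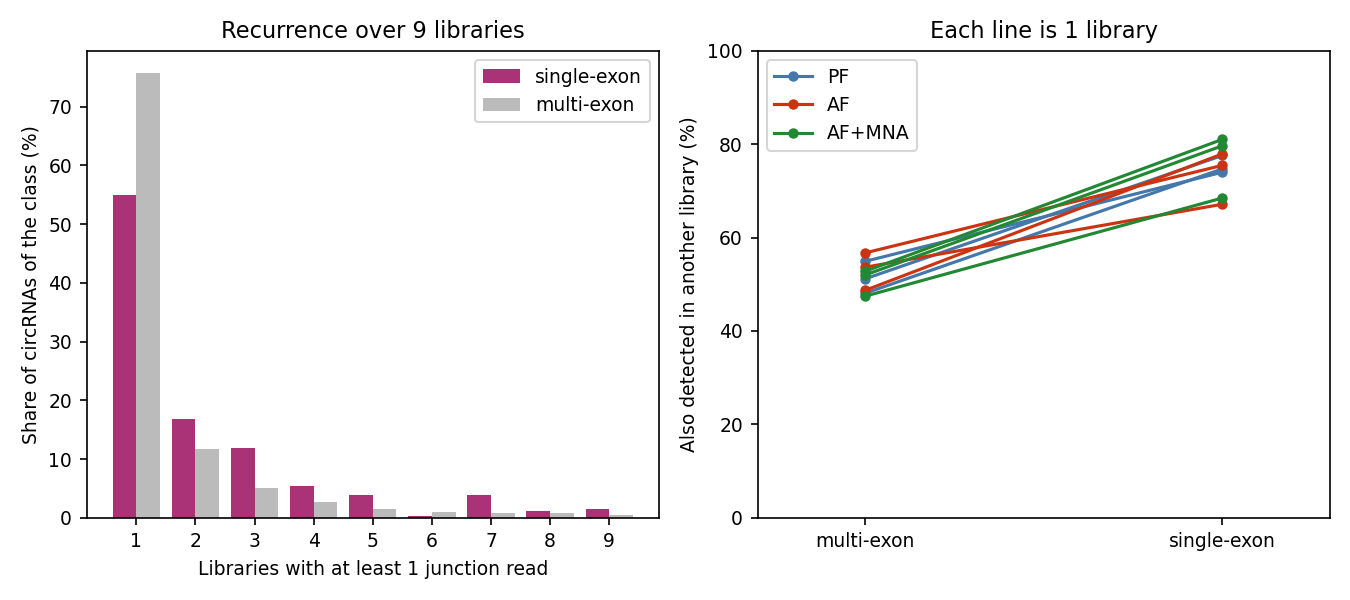
Left, share of each class (%) by the number of libraries with at least 1 junction read. Right, share of the circles of a library that were also detected in another library (%), 1 line per library coloured by group. All 9 lines rise from multi-exon (mean 51.7%) to single-exon circles (mean 75.1%).

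The 15 circles with the most reads held 38.8% of the reads, and 11 of them were exon 2. The last place was tied at 18 reads, and the circle seen in more libraries was taken. Nfix was the most abundant, with 8.78% of all single-exon reads and the fourth place among all 4486 circRNAs. Its junction reads were 18, 12 and 15 (PF), 13, 8 and 17 (AF) and 15, 21 and 23 (AF+MNA) for replicates 1, 2 and 3. The groups overlapped in both comparisons.

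Other regulators of transcription were also among the 15. Pwwp2a, a chromatin protein that binds the histone variant H2A.Z, had 9, 13 and 12 reads (PF), 10, 6 and 0 (AF) and 3, 10 and 6 (AF+MNA). Tcf20 had 4, 0 and 9 reads (PF), 8, 3 and 6 (AF) and 0, 10 and 8 (AF+MNA). Both ranged from 0 to 10 or more between libraries, and their groups overlapped. Zfp516, a zinc finger protein, had 31 reads in all. Med13l, a subunit of the Mediator kinase module, had 27 reads, and Chd9, a chromatin remodeller, had 18, of which 8 were from AF replicate 3.

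Signalling hosts were Shoc2, Insr, Pik3r1 and Hipk3. Shoc2, a scaffold of the RAS and RAF pathway, had 4, 2 and 12 reads (PF), 0, 0 and 2 (AF) and 4, 7 and 3 (AF+MNA). The AF libraries lay below all PF and all AF+MNA libraries once scaled to depth. Insr, the insulin receptor, had 6, 4 and 3 reads (PF), 1, 1 and 3 (AF) and 6, 1 and 2 (AF+MNA). Pik3r1, the regulatory subunit of the kinase that acts below that receptor, had 3, 0 and 1 reads (PF), 3, 4 and 0 (AF) and 5, 3 and 8 (AF+MNA). Hipk3, whose exon 2 circle is a classical circRNA, had 1, 2 and 0 reads (PF), 5, 5 and 1 (AF) and 7, 1 and 0 (AF+MNA).

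Mbnl2 codes for a splicing factor of the muscleblind family. Its exon 2 circle had 1, 3 and 0 reads (PF), 2, 4 and 5 (AF) and 14, 1 and 0 (AF+MNA). Of its 30 reads, 14 came from AF+MNA replicate 1. Such unevenness was common: of 88 single-exon circles with at least 5 reads, 30 (34.1%) had more than 0.5 of their reads in 1 library, as did 46.9% of 684 multi-exon circles. AF+MNA replicate 1 was that library for 10 of the 30.

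**Figure D3:**
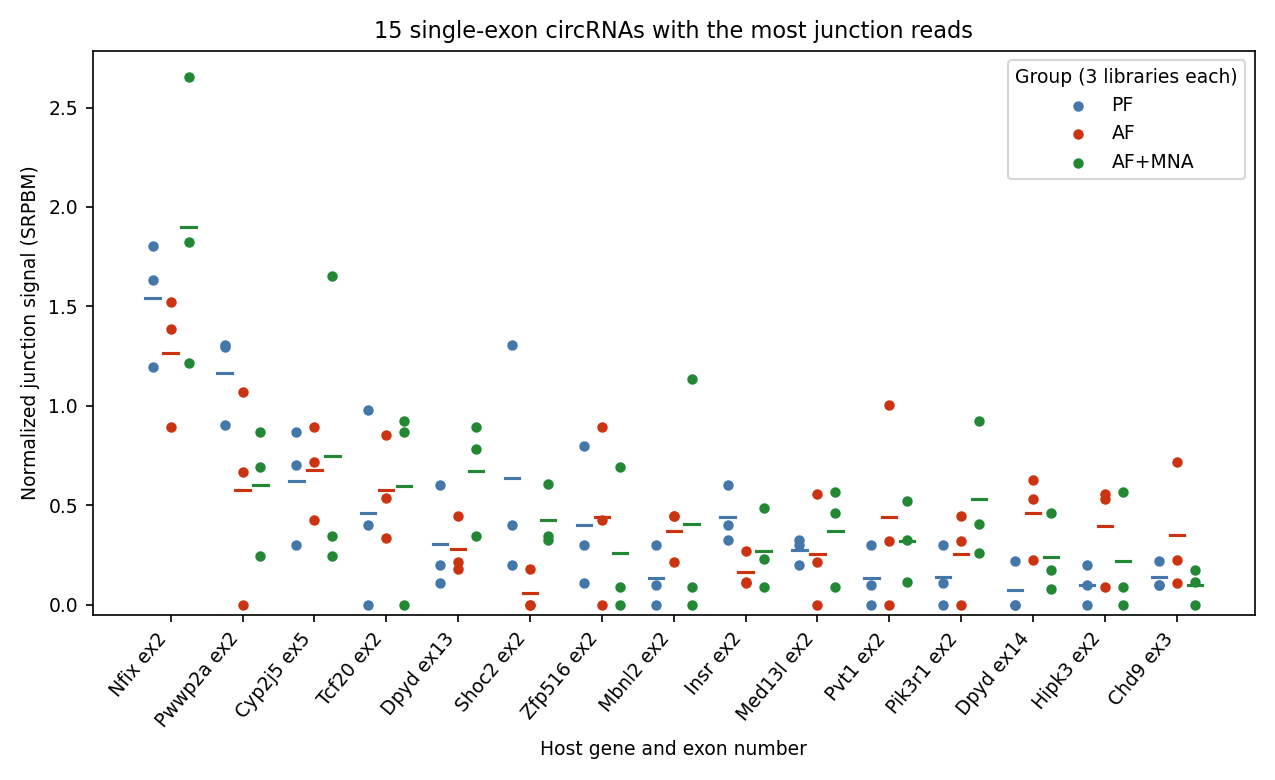
Normalized junction signal (SRPBM, junction reads scaled to the bases sequenced) of the 15 single-exon circRNAs with the most reads, by host gene and exon number. Points are libraries (3 per group), and short lines are group means. Nfix stands above the rest in most libraries, and the groups overlap for 12 of the 15 between AF and PF and for 14 of the 15 between AF+MNA and AF.

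Metabolic enzymes among the 15 were Cyp2j5 and Dpyd. Cyp2j5, an arachidonic acid epoxygenase of liver and kidney, had 7, 3 and 8 reads (PF), 4, 8 and 8 (AF) and 3, 19 and 3 (AF+MNA). Its circle is exon 5, 177 bases, and 19 of its 63 reads came from AF+MNA replicate 2. Of all circRNA reads of Cyp2j5, 98.4% were of this circle.

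Dpyd, dihydropyrimidine dehydrogenase, the first enzyme of pyrimidine breakdown, was the sole host with more than 2 single-exon circles. It had 6, from exons 5, 11, 12, 13, 14 and 20, all coding and 162 to 216 bases long, with introns of at least 15350 bases on both sides. The most abundant, exon 13, is printed whole as the example of these circles, with the 10 bases at each end that meet at the junction in capitals.
Dpyd exon 13: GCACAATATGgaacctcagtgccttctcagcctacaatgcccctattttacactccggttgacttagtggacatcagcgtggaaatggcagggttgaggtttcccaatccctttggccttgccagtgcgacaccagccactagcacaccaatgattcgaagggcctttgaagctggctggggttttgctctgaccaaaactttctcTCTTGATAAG
Its reads were 6, 2 and 1 (PF), 2, 4 and 2 (AF) and 11, 9 and 3 (AF+MNA). The neighbouring exon 14 had 0, 0 and 2 reads (PF), 5, 2 and 7 (AF) and 1, 2 and 4 (AF+MNA). Summed over the 6 circles, reads were 7, 3 and 6 (PF), 12, 10 and 15 (AF) and 16, 14 and 9 (AF+MNA), and every AF value was above every PF value. The sum was formed after the values were seen and was not tested. The 29 multi-exon circles of Dpyd together had 8, 11 and 4 reads (PF), 14, 11 and 22 (AF) and 13, 16 and 12 (AF+MNA).

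Host levels were found for 277 circles, with a median of 4.60 FPKM. Over these 277 circles Spearman's rho between junction reads and host FPKM was -0.0045, a description over circles that share libraries and in part hosts. Between exon length and host FPKM it was -0.38. The 22 circles of hosts with at least 100 FPKM had a median of 177 bases and 2 reads, and 28.6% of the 21 placed were exon 2. The other 255 had medians of 505 bases and 3 reads, and 50.6% of them were exon 2.

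Pvt1, a long noncoding RNA beside the Myc gene, had the lowest host level among the abundant circles. Its host entry had 0.0878 FPKM, and its exon 2 circle had 27 reads: 1, 3 and 0 (PF), 3, 9 and 0 (AF) and 4, 6 and 1 (AF+MNA). That level is near the rounding of the gene table and the lncRNA table was not used, so no ratio is given for it. Among the other circles seen in at least 5 libraries, the signal per 100 FPKM of host was highest for Pwwp2a (48.5 SRPBM) and Nfix (35.9 SRPBM) and lowest for Cyp2j5 (0.439 SRPBM), whose host level was 156 FPKM.

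**Figure D4:**
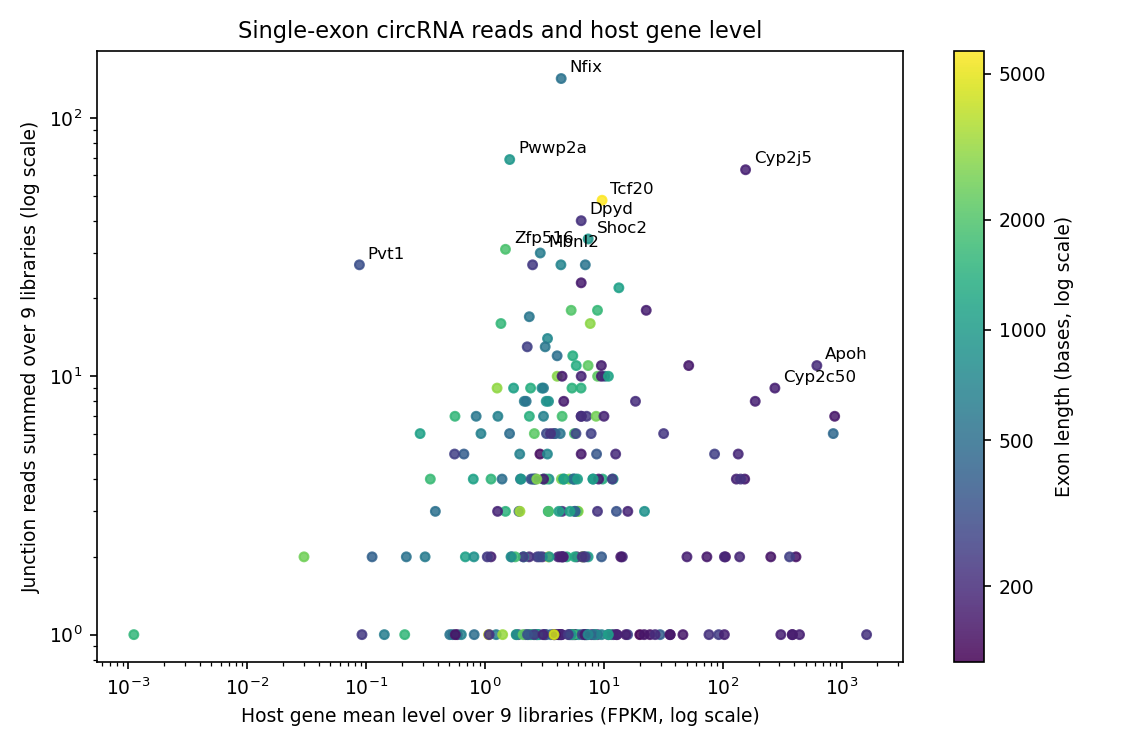
Junction reads summed over 9 libraries against the mean level of the host gene (FPKM), both on log scales, for 277 single-exon circRNAs. Colour gives exon length in bases. Nfix (142 reads) sits at 4.37 FPKM, Pvt1 (27 reads) at 0.0878 FPKM and Apoh (11 reads) at 619 FPKM.

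Hosts that are known for single-exon circles in other tissues were followed as a list of 11 genes. Of these, 7 gave a single-exon circle here, with 192 reads in all. Beside Nfix and Hipk3 these were Foxo3 (9 reads, 8 of them from AF+MNA replicate 1), Zfp609 (8 reads), Cdyl (7 reads) and Fat1 (3 reads), and Hipk2 had 1 read. No single-exon circle of Slc8a1, Cdr1, Cdr1os or Arhgap5 was listed, which at this depth allows up to 3 reads per library.

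Genes of plasma proteins, among the most abundant mRNAs of hepatocytes, were followed as a list. Of 50 listed, 9 hosted 10 circles with 34 reads. Apoh, beta-2-glycoprotein I, had 11 reads at a host level of 619 FPKM, with 1, 0 and 5 (PF), 0, 1 and 4 (AF) and 0 in each AF+MNA library. Mug1, a protease inhibitor, had 7 reads at 874 FPKM, and C9, a component of the complement attack complex, had 5 reads, all from PF replicate 2. Kng1, Azgp1 and Fn1 had 2 reads each. As genes, 0 of the 46 tested passed an adjusted p of 0.05 in either comparison (limma), with 5 at an unadjusted p under 0.05 in AF against PF, where 11.7% of all genes passed, and 0 in AF+MNA against AF, where 5.21% did.

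Of 86 metabolic enzyme genes, 14 hosted 20 circles with 149 reads, of which Dpyd held 92. Of the 82 enzyme genes tested in AF against PF, 4 were higher and 1 lower at an adjusted p under 0.05 (limma), against 0.326% of all genes, and 30 had an unadjusted p under 0.05, against 11.7% of all genes. In AF+MNA against AF, 0 of the 82 passed an adjusted p (limma) and 10 an unadjusted one, against 0.0491% and 5.21% of all genes. Of 84 chromatin and transcription regulators, 18 hosted 19 circles with 243 reads. Jmjd1c, a histone demethylase family member, had 8 reads, 7 of them from AF+MNA replicate 1. Tet3, which oxidizes methylated cytosine, had 6 reads in 5 libraries.

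The summed level of single-exon circles differed between groups by less than the spread of the libraries. It was 2.55 ± 0.413 RPM in PF, 2.65 ± 0.402 in AF and 2.77 ± 0.258 in AF+MNA (SD, n = 3 each). AF differed from PF by 0.0989 (p = 0.7) and AF+MNA from AF by 0.12 (p = 0.6, exact permutation tests, two-sided, with 0.1 as the smallest p that 3 against 3 allows). Their share of all circRNA junction reads was 8.66% ± 1.15 in PF, 8.85% ± 0.798 in AF and 9.43% ± 0.679 in AF+MNA (exact permutation p = 0.8 and 0.4). The lowest share was 7.66% in PF replicate 2 (95% Wilson interval 6.53 to 8.97) and the highest 10.2% in AF+MNA replicate 2 (9.03 to 11.5), intervals that cover counting error only. The number detected was 65 ± 19.5 in PF, 66.7 ± 12.3 in AF and 69.7 ± 19.4 in AF+MNA (exact permutation p = 0.9 and 0.8). The summed SRPBM over the summed FPKM of the hosts, times 1000, was 1.96 ± 0.354, 1.83 ± 0.175 and 1.84 ± 0.147 (exact permutation p = 0.6 and 1). In bulk liver, fewer cells of a type and less RNA per cell cannot be told apart. Leaving out 1 library turned the sign of 7 of these 8 differences.

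No single-exon circle passed an adjusted p of 0.05 (edgeR, quasi-likelihood) between AF and PF. Of the 278 circles, 44 had reads in at least 3 of the 6 libraries and were tested among 335 circRNAs, of which 0.0% passed. At an unadjusted p under 0.05, 4 of the 44 (9.09%) passed, 2 higher and 2 lower in AF (4.55% each), beside 5.97% of all 335 (3.28% higher, 2.69% lower), and DESeq2 gave 0. With any 1 of the 6 libraries left out the count was 0 to 2. As a description, the median log2 fold change was -0.03 over the 44 and -0.05 over all 335, with 22 estimates above and 22 below 0. The median standard error over the 44 was 1.68 on the log2 scale. Of the 4 circles at an unadjusted p under 0.05, 3 had no read in 1 of the groups and met the filter only through the other group, so the filter itself fixed that they differed. Their values are given without a p.

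Cyp2c50, a liver P450 of the Cyp2c family, and Nsd1, a histone H3 lysine methyltransferase, had reads in AF and none in PF. Cyp2c50 had 0 reads in each PF library and 2, 1 and 6 in AF. Of its 9 reads, 6 came from AF replicate 3. Nsd1 had 0 reads in PF and 2, 2 and 3 in AF. Rnf216, a ubiquitin ligase, had 3, 2 and 1 reads (PF) and 0 in each AF library. No fold is given for these few reads against 0. Shoc2 was the circle of the 4 with reads in both groups.

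Shoc2 had a log2 fold change of -3.06 ± 1.53 (SE) in AF against PF (edgeR adjusted p = 0.772, and 0.384 to 0.998 over the alternatives). Nfix, the circle with the smallest error, had -0.28 ± 0.59 (SE, edgeR adjusted p = 0.942, and 0.727 to 0.998 over the alternatives). The Dpyd circle of exon 14 had 2.52 ± 1.66 and Vps13d, a lipid transfer protein, 2.65 ± 1.89 (SE). Adk, adenosine kinase, had -2.27 ± 1.79 and Pwwp2a -1.02 ± 0.83 (SE). All of these lay within about 2 standard errors of 0. Single libraries moved these values by much. With 1 library left out Shoc2 lay between -5.61 (without AF replicate 3, which held both AF reads) and -2.01 (without PF replicate 3). The Dpyd circle of exon 14 reached 5.24 without PF replicate 3, which held its PF reads, and Adk -4.06 without AF replicate 3. Pwwp2a lay between -1.83 (without AF replicate 1) and -0.42 (without AF replicate 3), and Nfix went from -0.43 without PF replicate 2 to -0.08 without AF replicate 2. The values of -5.61, 5.24 and -4.06 are fits against a group left with no read and are no bounds. Once scaled to depth, libraries of the groups did not overlap for 3 of the 15 most abundant circles, against 11.0% of all 335 tested. These were Shoc2, Insr and the Dpyd circle of exon 14. In raw reads a PF and an AF library tied in each, at 2, 3 and 2 reads, so the separation rests on the scaling.

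In AF+MNA against AF, again 0 of 43 single-exon circles tested passed an adjusted p of 0.05 (edgeR), and 0.0% of 320 circRNAs did. At an unadjusted p under 0.05, 2 of 43 (4.65%) passed, both lower in AF+MNA, against 4.38% of all 320 (1.88% higher, 2.5% lower), and DESeq2 gave 0. They were Cyp2c50 and Nsd1 again, each with 0 reads in all 3 AF+MNA libraries. Both met the filter only through their AF libraries, and no p is given for them. Both comparisons share the AF libraries, so a high AF value counts in each. As a description, the median log2 fold change was 0.15 over the 43 and 0.06 over all 320.

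Shoc2 had a log2 fold change of 2.52 ± 1.66 (SE) in AF+MNA against AF, and Lpp, a focal adhesion protein, 2.02 ± 1.70. The Dpyd circle of exon 13 had 1.26 ± 1.31 and Nfix 0.57 ± 0.62 (SE). Mfsd6, a membrane transporter family member, had -2.36 ± 1.67 and Vps13d -1.97 ± 1.72 (SE). Each had an adjusted p of 0.978 (edgeR). With 1 library left out, Shoc2 reached 5.16 without AF replicate 3 and Mfsd6 -5.13 without AF+MNA replicate 3, both again against a group left with no read. Nfix lay between 0.26 (without AF+MNA replicate 3) and 0.81 (without AF+MNA replicate 1). Among the 15 most abundant circles, the groups did not overlap for 1, Shoc2, against 11.9% of the 320 tested.

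**Figure D5:**
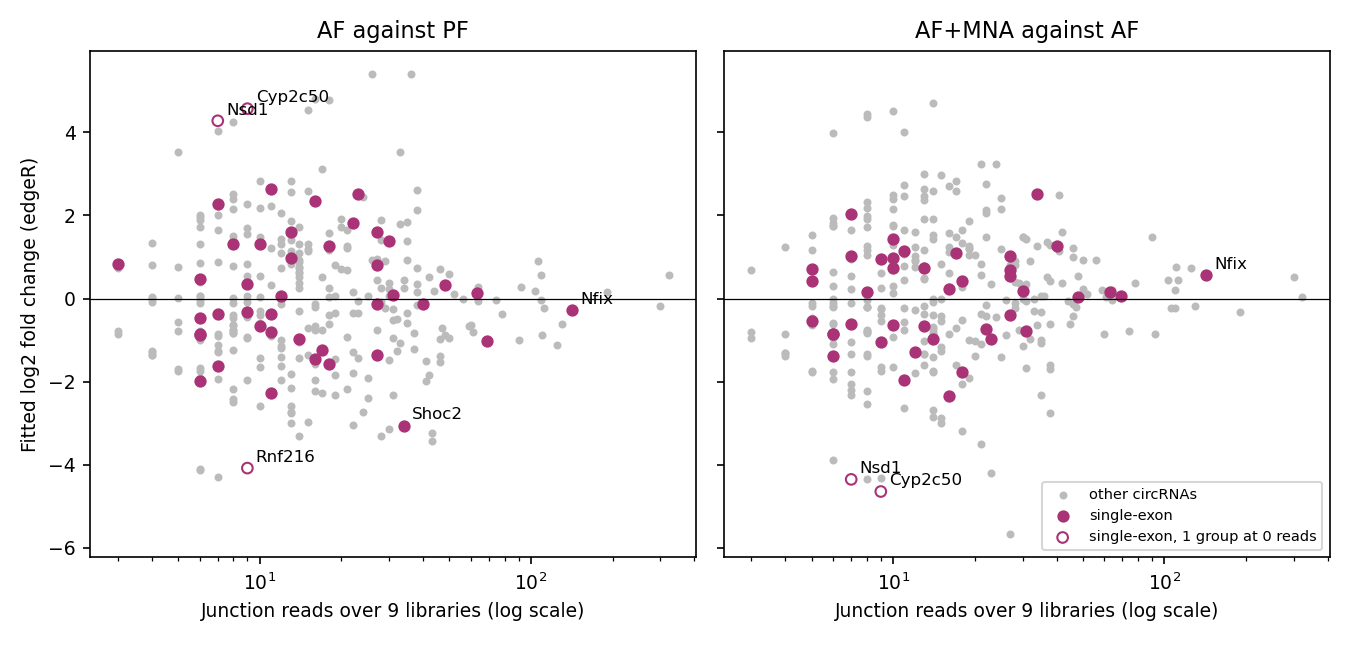
Fitted log2 fold change of junction counts (edgeR) against the junction reads over 9 libraries, for AF against PF (left) and AF+MNA against AF (right). Filled points are single-exon circles with reads in both groups, open points those with 0 reads in 1 group, whose fitted value is not a bound, and grey points other circRNAs. Labelled are Nfix and the circles with an unadjusted p under 0.05.

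The hosts were tested in the gene table. Its FPKM values do not separate linear from circular RNA, since no digestion of linear RNA is described. Of 245 host genes tested in AF against PF, 3 were higher at an adjusted p under 0.05 (limma) and none lower, 1.22% against 0.326% of all 12273 genes (0.179% higher). An unadjusted p under 0.05 was found for 35 hosts (14.3% against 11.7%), 20 higher and 15 lower (8.16% and 6.12%, against 5.1% and 6.57% of all genes). All 3 are P450 genes. Cyp2c29 rose from 63.0, 32.1 and 53.7 FPKM (PF) to 489, 457 and 443 (AF), a difference of 3.25 ± 0.26 (SE) on the log2(FPKM + 1) scale (limma adjusted p = 0.0073). Cyp2c54 rose from 64.7, 72.3 and 67.9 to 244, 265 and 220 FPKM (1.81 ± 0.14, limma adjusted p = 0.0073). Cyp3a59 rose from 3.50, 3.80 and 4.35 to 25.3, 13.8 and 26.8 FPKM (2.18 ± 0.26, limma adjusted p = 0.0328). The Cyp3a59 call was lost when PF replicate 1, 2 or 3 or AF replicate 1 or 3 was left out, leaving 2 hosts, and with the replicate block Cyp2c29 alone passed. Close paralogs share sequence in both families, so the split of reads between them is uncertain. A gene counts as a host once 1 junction read is found in any library, and the reads of these 3 circles came from AF and AF+MNA libraries only. Hence the host share is not independent of the level of the gene in those libraries.

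Circles of 3 Cyp2c genes were set beside their hosts. Cyp2c50 and Cyp2c54 lie near each other on chromosome 19, and their circularized exons are both exon 5 with 177 bases. They are printed because they are identical at 168 bases (94.9%) and at 28 of the 30 junction bases, with the 10 bases at each end in capitals.
Cyp2c50, chr19:40092204-40092380, plus strand: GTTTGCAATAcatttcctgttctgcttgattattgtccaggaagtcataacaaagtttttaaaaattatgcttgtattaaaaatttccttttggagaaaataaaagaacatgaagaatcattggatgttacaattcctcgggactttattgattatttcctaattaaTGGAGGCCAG
Cyp2c54, chr19:40070168-40070344, minus strand: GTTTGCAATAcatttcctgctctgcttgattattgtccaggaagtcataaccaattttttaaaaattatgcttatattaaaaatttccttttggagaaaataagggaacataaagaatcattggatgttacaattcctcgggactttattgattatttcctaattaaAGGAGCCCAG
Cyp2c29 also gave a circle of 177 bases, from exon 6 of its isoform, identical to the Cyp2c50 exon at 135 bases (76.3%). Summed over the circles of Cyp2c29, Cyp2c50 and Cyp2c54, reads were 0 in each PF library, 3, 7 and 8 (AF) and 0 in each AF+MNA library. The host gene Cyp2c50 had 130, 90.1 and 137 FPKM (PF), 358, 359 and 299 (AF) and 374, 396 and 327 (AF+MNA), and Cyp2c54 had 268, 252 and 235 FPKM (AF+MNA). Gene levels of both hosts in AF+MNA were thus near those in AF, while reads of their single-exon junctions came from AF libraries only. Those reads were few, 9 for Cyp2c50 and 8 for Cyp2c54 over the 3 AF libraries. The 3 multi-exon circles of the same 3 genes had 0 reads in PF, 6, 3 and 2 (AF) and 2, 6 and 1 (AF+MNA). Over all 5 single-exon circles of Cyp2c genes reads were 0, 0 and 1 (PF), 3, 7 and 8 (AF) and 0, 2 and 0 (AF+MNA). The 16 multi-exon Cyp2c circles had 104 reads, as 6, 9 and 15 (PF), 14, 16 and 13 (AF) and 15, 11 and 5 (AF+MNA). The group of 3 genes was chosen after its values were seen, and with 18 reads it was not tested.

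In AF+MNA against AF, 0 of 244 host genes passed an adjusted p of 0.05 (limma), against 0.0491% of all 12219 genes (0.0164% higher, 0.0327% lower). An unadjusted p under 0.05 was found for 8 hosts (3.28%), against 5.21% of all genes (2.91% higher, 2.3% lower). Acsl1, which activates long-chain fatty acids, was among the 8, with 16.8, 25.3 and 18.4 FPKM (AF) and 23.0, 53.8 and 60.2 in AF+MNA (limma adjusted p = 0.94). Its exon 2 circle had 0 reads in AF and 0, 1 and 4 (AF+MNA).

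Genes that form or clear circRNAs were read from the same gene table. None of the 21 tested, of 25 listed, passed an adjusted p of 0.05 in either comparison (limma), and 2 had an unadjusted p under 0.05 in AF against PF and 0 in AF+MNA against AF, against 11.7% and 5.21% of all genes. A count of 2 of 21 is below that share, and nothing is read from it. The 2 were Mbnl2, itself a host, and Nudt21, a polyadenylation factor. Mbnl2 had 2.16, 2.48 and 1.66 FPKM (PF) and 3.92, 4.01 and 2.95 in AF (0.58 ± 0.16 SE on the log2(FPKM + 1) scale, limma adjusted p = 0.265). Nudt21 had 1.58, 2.18 and 3.44 FPKM (PF) and 3.42, 3.66 and 4.03 in AF (limma adjusted p = 0.428). The Nfix gene had 5.76, 6.35 and 4.34 FPKM (PF) and 3.44, 2.60 and 3.80 in AF (limma adjusted p = 0.3), without overlap, while its circle overlapped between the groups. The share of all genes without overlap is not given, and whether gene and circle differed was not tested.

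The tissue label was read against markers. Albumin, the main secreted protein of hepatocytes, stood between 10880 and 17390 FPKM in all 9 libraries. The sum of 6 hepatocyte genes ranged from 21450 to 26800 FPKM in PF, 18620 to 25880 in AF and 24710 to 26120 in AF+MNA. Among them, Serpina1c and Cyp2e1 were lower and Cps1 higher in every AF library than in every PF library. The summed level of 5 Kupffer cell markers ranged from 48.0 to 62.9 FPKM in PF, 38.2 to 78.1 in AF and 52.7 to 64.9 in AF+MNA. None of the marker genes that passed the filter on low values had an adjusted p under 0.05 in either comparison (limma). That filter left out both lymphocyte genes, 3 of 4 cholangiocyte genes and some erythroid and pancreas genes. At an unadjusted p under 0.05 were 1 of 5 Kupffer, 2 of 4 stellate and 1 of 1 pancreas genes tested in AF against PF, where 11.7% of all genes passed. No tested gene of the other marker lists did so, and in AF+MNA against AF no marker did (limma), where 5.21% of all genes passed. No listed marker hosted a single-exon circle. The sums were 26.6 to 27.2, 23.6 to 33.1 and 25.2 to 37.1 FPKM for 4 stellate cell genes and 17.3 to 21.5, 21.6 to 32.2 and 27.0 to 30.4 FPKM for 4 sinusoidal endothelial genes in PF, AF and AF+MNA. Sums of 4 cholangiocyte genes were 1.14 to 2.46 FPKM and of 2 lymphocyte genes 0.13 to 0.61 FPKM over all libraries. The erythroid gene Hbb-bs ranged from 156 to 391 FPKM. The pancreas genes Cela1 and Ctrb1 together ranged from 5.47 to 6.91 FPKM in PF, 2.35 to 4.29 in AF and 3.06 to 7.18 in AF+MNA. Whether these ranges bear on the circle counts was not tested.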

How the data were processed

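Mouse liver RNA was sequenced as 9 ribosomal RNA-depleted, strand-specific paired-end libraries (3 PF, 3 AF, 3 AF+MNA), and groups were taken from the sample titles. The authors deposited a count of back-splice junction reads for each circRNA, not normalized, and the same as a signal (SRPBM), junction reads scaled to the bases sequenced. The gene table holds FPKM values deposited by the authors from StringTie, rounded to 2 decimals. Per the labels the submitters' processing notes name cutadapt 1.9, FastQC, HISAT2, StringTie 1.3.4, edgeR and TopHat, and the circRNA caller and its filters are not given in the sources used here. Junctions missed or misplaced by the caller, as between close paralogs, would change single counts. The lncRNA table was not used here.

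Total reads per library (57800660 to 82179248) were recovered from the ratio of count to SRPBM with a read length of 150. Counts of all circRNAs with reads in at least 3 of 6 libraries entered the quasi-likelihood test of edgeR 4.0.16, with total reads as library sizes, with Benjamini-Hochberg adjustment over all tested circRNAs. Standard errors printed for edgeR were not fitted. They are the absolute log2 fold change over the square root of the F statistic, so they restate the test. Host genes were tested with limma 3.58.1 on log2(FPKM + 1) for genes averaging 0.5 FPKM or more. Sums, shares and numbers were compared by exact permutation tests over libraries. No source used here says that the libraries of a group came from separate animals, so p-values measure only the spread between these samples, which may be technical. R 4.3.3, DESeq2 1.42.0, Python, pandas and scipy were used, and the fits were tested on simulated data. Exons, coding parts and sequences came from GENCODE M21 (GRCm38). The files' build is not named in the sources used here, and exon coordinates matched exactly for 277 of 278 circles. The host entry was found by isoform for 255 circles and by gene name for 22. Sequences on chromosome 18 were not printed.

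Named circles were the 15 with the most reads, the 4 lowest unadjusted p in each direction of a comparison, the 3 shortest and longest, hosts with at least 3 circles, up to 6 per gene list and hosts passing limma. A circle that this rule names is not reported here. Jmjd1c, Nudt21, Nfib, the Kupffer and other marker sums and the Cyp2c group were read as list members or after their values were seen. The circles and lists were chosen with earlier results of these data known. Alternatives were TMM factors, circRNA reads as library size, other filters, DESeq2, all 9 libraries in 1 fit, a replicate block, another pseudocount and each library left out.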

Additional observations from a re-analysis of the deposited data

How the results depend on the processing

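No single-exon circle passed an adjusted p of 0.05 under any edgeR or DESeq2 setting run, in either comparison. Counts at an unadjusted p under 0.05 were lower in several. For AF against PF (4) they were 1 without a filter, 0 with reads in at least 5 of 6 libraries, 0 with DESeq2, 0 with the replicate block, and 0 to 2 with 1 library left out. For AF+MNA against AF (2) they were 0 without a filter, 0 with reads in at least 5 of 6 libraries, 0 with DESeq2, 0 with the replicate block, 0 to 1 with 1 library left out and 0 without AF replicate 3 and AF+MNA replicate 1. Fewer circles enter the stricter filter and the fits without a library, and for the other settings the cause was not tested. Host genes higher in AF (3) were 1 with the replicate block (Cyp2c29), and 2 to 3 without 1 library, Cyp3a59 being the one lost. They were 4 with all 9 libraries in 1 fit and 2 when genes of any mean above 0 were tested.

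Differences between groups of summed values turned sign easily. Over circles in at least 3 of 9 libraries, AF minus PF was -0.0332 RPM, -0.207 percentage points of the share and -2 circles detected. Without 1 library it ranged from -0.124 to 0.316 RPM, -0.304 to 0.826 points, -5.83 to 12.7 circles and -0.319 to 0.0351 in the ratio to hosts. For AF+MNA minus AF the ranges were -0.0974 to 0.2998, 0.16 to 0.953, -8.17 to 8.83 and -0.0884 to 0.0807. Without both AF replicate 3 and AF+MNA replicate 1, AF+MNA minus AF was -0.0999 RPM and -0.0434 in the ratio. The single-exon excess in reads per detected circle became -0.048 without the top circle of each class, -0.189 in shared hosts and 0.182 without those 2 libraries, and 0.0682 to 0.14 without 1 library. The excess in recurrence stayed between 17.1 and 24.7 points in all settings. The cause of these shifts was not tested.

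Replicate numbers did not pair the libraries. Deviations of same-numbered libraries from their group means correlated between -0.0434 and 0.0615 over genes. The replicate block changed no call at an adjusted p except those of the host genes above. For summed values the paired difference equals the unpaired one by construction (0.0989 RPM for AF minus PF), and its exact paired permutation p was 0.75 and 0.5 for the summed reads, 1 and 0.5 for the share, 1 and 0.75 for the number and 0.5 and 1 for the ratio to hosts, in AF against PF and AF+MNA against AF. Junction counts per circle were low, and the median standard error of the single-exon circles was 1.68 log2 units in AF against PF and 1.61 in AF+MNA against AF.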
